A study of Mus musculus with 6 samples.

Results

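The Ets family is a set of transcription factors that share the ETS domain, a DNA-binding fold that reads sites around a GGAA core. Spib and 9 relatives (Spi1, Ets1, Ets2, Elf1, Elf4, Fli1, Etv6, Elk3 and Gabpa) were examined in mouse T cells grown towards a regulatory fate, with an E47 fusion protein or a control protein. Every probe set whose annotated gene symbol is exactly one of these names was taken, with no further choice, which gave 23 of the 45037 probe sets tested on the arrays and 10 of 18193 genes. A probe set is a group of short array probes for the same transcript region, and each of the 10 genes had 1 to 4 of them.

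The 3 E47 samples carried the retrovirus pMIT-E47-ER and the 3 control samples carried pMIT-bHLH-ER, whose insert is not described beyond its name in the sources used here. Both groups started from CD4+CD25- T cells of C57BL/6 lymph nodes. They were stimulated through CD3 (2 µg/ml antibody) and CD28 (1 µg/ml) for 2 days with 200 U/ml IL-2 and 5 ng/ml TGF-β1, infected on day 1, sorted as CD4+Thy1.1+, and then kept for 6 h with IL-2, the antibodies and 1 µM tamoxifen. Each of 3 experiments gave 1 E47 and 1 control sample, from mice of 7, 8 and 9 weeks with 3, 3 and 4 animals pooled in experiments 1, 2 and 3. E47 is a helix-loop-helix factor made from Tcf3 that binds E-box DNA, and an ER part, taken from the estrogen receptor, keeps a fusion protein inactive until tamoxifen is given. Expression was forced from a virus, no sample went without tamoxifen, and on bulk arrays fewer cells with a transcript and less of it per cell cannot be told apart.

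Ets factors take part at most steps of blood cell development. Ets1, Fli1, Elf1 and Gabpa are used in T cells, where Ets1 and Elf1 bind control regions of T cell receptor and cytokine receptor genes. Spi1 encodes PU.1, a main regulator of myeloid and B cells that is shut off as T cells commit, and Spib encodes Spi-B, its closest relative, known from B cells and plasmacytoid dendritic cells. Etv6 and Elk3 act mostly as repressors.

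The start site region of Spib is shown because Spib had the largest difference of the family. The next largest on the other side was in Elk3, whose region is shown beside it. Both are RefSeq sequences of build GRCm38.p6, 250 bases before the start site to 50 after it. Each was searched on both strands for the E-box CANNTG, which reads the same on either strand, and matches are in capitals.
Spib, chr7:44532022-44532321, minus strand: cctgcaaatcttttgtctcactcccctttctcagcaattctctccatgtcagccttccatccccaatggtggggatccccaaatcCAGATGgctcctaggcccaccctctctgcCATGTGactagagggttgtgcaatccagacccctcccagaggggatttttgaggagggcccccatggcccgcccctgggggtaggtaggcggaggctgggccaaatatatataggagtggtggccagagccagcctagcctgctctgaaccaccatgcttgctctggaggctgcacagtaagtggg
Elk3, chr10:93311110-93311409, minus strand: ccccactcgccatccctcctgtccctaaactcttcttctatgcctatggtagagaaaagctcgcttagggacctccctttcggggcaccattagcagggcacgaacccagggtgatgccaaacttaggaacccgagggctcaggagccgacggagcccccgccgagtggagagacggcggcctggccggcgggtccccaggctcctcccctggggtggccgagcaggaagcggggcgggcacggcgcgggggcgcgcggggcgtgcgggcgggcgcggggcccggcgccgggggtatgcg

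The Spib window held 2 E-boxes, CAGATG and CATGTG, with first bases at -165 and -136 from the start site, and the Elk3 window held 0. CANNTG was found in 72.3% of 32851 windows of this length over all genes, so a match of this kind is common. The forms that E47 is best known to bind are CAGCTG and the pair of reverse complements CACCTG and CAGGTG. At least one of these occurred in 32.95% of those windows and in neither of the printed ones. Windows were found for 7 of the 10 genes, 9 windows in all. CANNTG stood in 3 of the 9 and one of the preferred forms in 2, which were windows of Elf1 and Elf4. These are matches of letters in a short window, not binding sites.

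The cultures were checked first. The 8 T cell marker genes measured were all brighter than the median probe set, and their summed intensity was 23136 to 27001 in E47 samples and 22340 to 25799 in control samples. Of 10 probe sets for these 8 genes 0 passed in limma (2 higher and 2 lower at an unadjusted p under 0.05), with log2 fold changes of 0.39 for Cd3g and -0.31 for Cd5. Of 10 probe sets for 6 regulatory T cell markers 0 passed (0 higher and 1 lower unadjusted), and all 10 had a negative log2 fold change. Their sum was 9939 to 11999 in E47 samples, against 12181 to 13614 in control samples, so these ranges did not overlap. No single marker separated the groups: all E47 arrays lay below all control arrays in 0 of the 10 probe sets, against 6.65% of all. The brightest gene in the sum was Tnfrsf18, with means of 5667 in E47 and 6795 in control samples. The part of these differences in the results below was not tested. Il2ra and Tnfrsf18 had log2 fold changes of -0.22 and -0.26 (adjusted p = 0.585 and 0.447). Foxp3, the lineage factor of regulatory T cells, had intensities of 82.1, 228 and 67.0 in E47 samples of experiments 1 to 3 and 85.8, 286 and 78.1 in the matching control samples. In experiments 1 and 3 these were below 97.7, the highest mean level among 17 genes of other tissues described below. Experiment 2 thus stood apart in both groups (F test between experiments, adjusted p = 0.0146 in limma). Over all probe sets, deviations from the group means correlated at 0.52 between the arrays of experiment 2, at 0.09 in experiment 1 and at 0.31 in experiment 3. Tcf3, the gene that encodes E47, was at 494, 449 and 501 in E47 samples and 482, 492 and 482 in control samples (adjusted p = 0.973). For Esr1, the estrogen receptor gene, the adjusted p was 0.601, with a log2 fold change of 0.21. Whether the probes of these genes lie in the cloned parts was not analysed here, so their levels do not check the labels.

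Spib is represented by 1 probe set. Its intensity was 219, 309 and 357 in E47 samples of experiments 1, 2 and 3, against 78.3, 42.6 and 46.9 in the control samples of the same experiments. Every E47 sample was brighter than every control sample, and the lowest E47 value was 2.79-fold above the highest control value. The ratio of E47 to control was 2.79, 7.24 and 7.61 in the 3 experiments. Experiment 1 had the smallest ratio, with the highest of the control values and the lowest of the E47 values. The means were 295 ± 70.1 in E47 samples and 55.9 ± 19.5 in control samples (SD, n = 3).

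**Figure D1:**
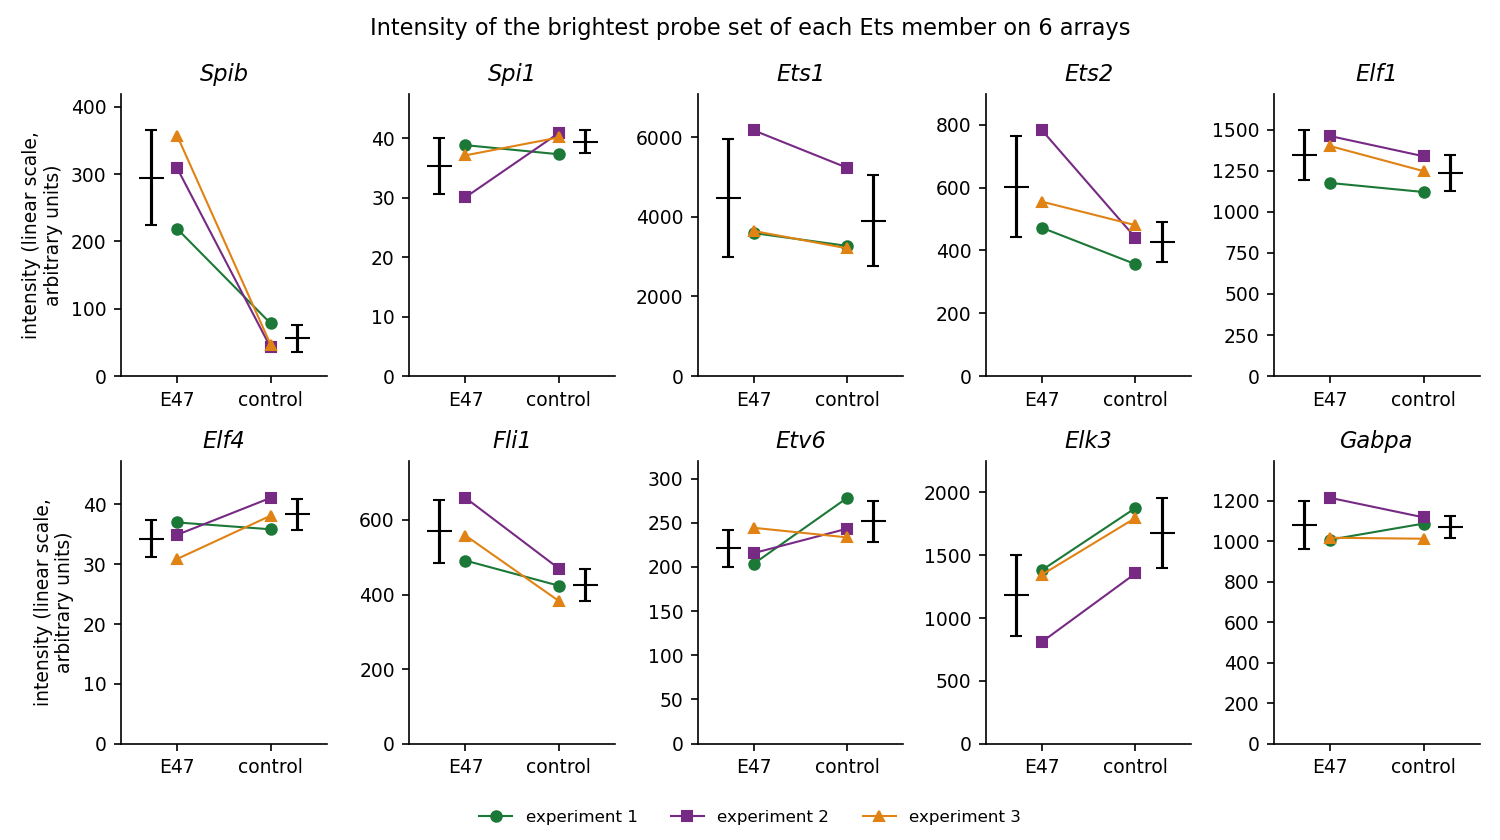
Intensity (linear scale, arbitrary units, each axis from 0) of the brightest probe set of each of the 10 genes. Coloured symbols joined by lines are the E47 and control arrays of an experiment, and black bars are the mean and SD of 3 arrays; Spib runs from 219 to 357 in E47 samples and from 42.6 to 78.3 in control samples, while the groups overlap in 8 of the other 9 genes and do not in Fli1.

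On the log2 scale the difference in Spib was 2.42 (SE 0.29, 95% interval 1.71 to 3.13), a 5.36-fold higher level in E47 samples. The interval is that of 1 probe set and is not adjusted for the number tested. With the experiment as a block and adjustment over all 45037 probe sets, the adjusted p was 0.0592 in limma, so Spib missed the threshold of 0.05. It passed when the experiments were not matched (adjusted p = 0.0277) and when each gene was given by its brightest probe set (0.0170, adjusted over 18193 genes). Leaving out an experiment moved it the most. The adjusted p was 2.65e-04 without experiment 1 (log2 fold change 2.89), 0.334 without experiment 2 (2.20) and 0.5005 without experiment 3 (2.17). The direction and a size of at least 2.12 on the log2 scale were the same in each of the 12 settings, and 6 of the 11 alternatives passed. A larger difference upward was found in 17 of 45037 probe sets. Spib is a gene that the study is known to discuss and was chosen with earlier results known, so its size here is a description.

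**Figure D2:**
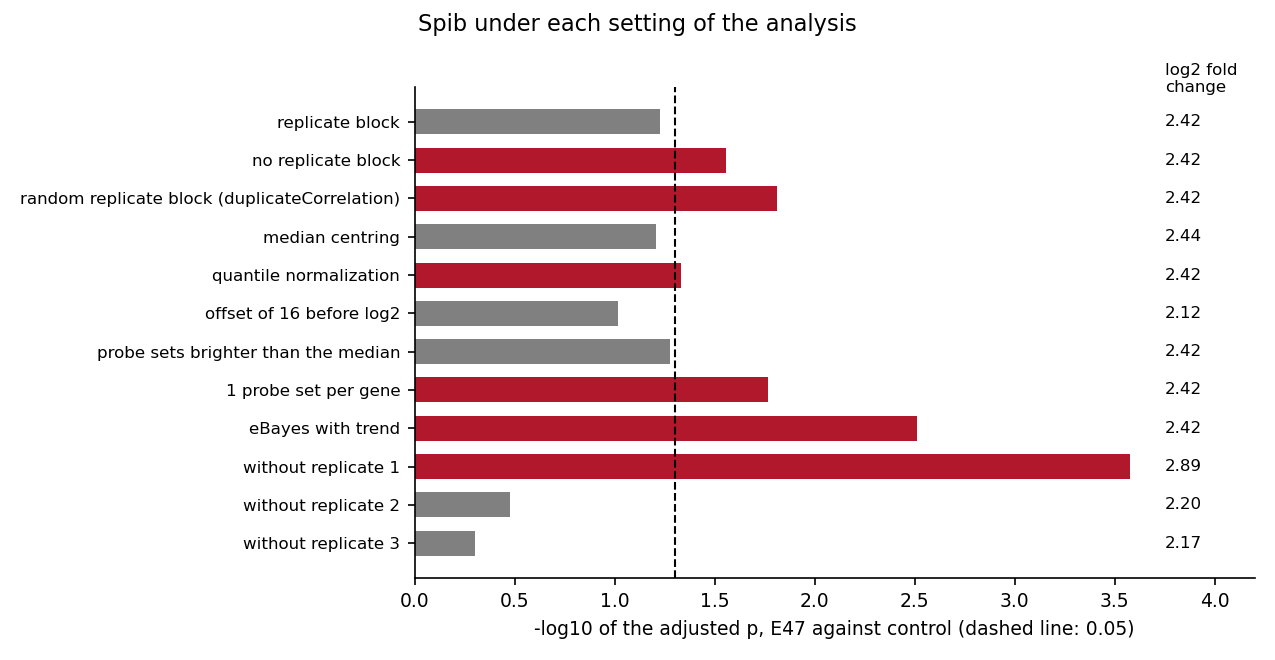
The size of the bars is the −log10 of the adjusted p of Spib under each of 12 settings, with the log2 fold change (E47 over control) in the column at the right. Red bars pass the threshold of 0.05 and grey bars do not; the log2 fold change stays between 2.12 and 2.89.

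Spi1, which encodes PU.1, did not follow Spib. Its intensity was 38.8, 30.1 and 37.1 in E47 samples and 37.3, 40.8 and 40.1 in control samples. The groups overlapped, and the ratio was above 1 in experiment 1 and below 1 in the other two. The fitted ratio was 0.892, with a 95% interval of 0.729 to 1.09 (adjusted p = 0.708). These are dim values. A list of 17 genes of other tissues, such as insulin and growth hormone, had mean levels over the 6 arrays with a median of 28.4 and a highest of 97.7. Of their 26 probe sets 0 passed (1 higher and 0 lower unadjusted), and Cryaa and Amelx, a lens and an enamel gene, had log2 fold changes of -0.22 and -0.20. Spi1 in both groups and Spib in control samples thus lay within the range of signals from genes not expected in T cells, while Spib in E47 samples lay above it. Probes differ in background, so this is a rough guide and does not show that a transcript was absent. A dim control value makes the size of a ratio uncertain: with 16 added to every intensity the Spib log2 fold change was 2.12 (adjusted p = 0.0962).

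The same samples were examined for other genes of the cells that normally use Spib and Spi1. Of 14 probe sets for 7 B cell markers 0 passed (0 higher and 0 lower unadjusted), and their summed intensity was 199 to 228 in E47 samples and 208 to 249 in control samples. For the B cell receptor chain Cd79a and the B lineage factor Pax5 the log2 fold changes were -0.20 and -0.16 (adjusted p = 0.663 and 0.715). The B cell markers were dim, with a median level of 31.5 and a highest of 43.2, so these counts say little. Of the 7 genes 3 were above the median probe set. Of 13 probe sets for 9 myeloid markers 0 passed (0 higher and 2 lower unadjusted). Their sums of 257 to 278 in E47 samples and 289.5 to 315 in control samples did not overlap, and Cd14 and Cybb had log2 fold changes of -0.25 and -0.22 (adjusted p = 0.523 and 0.524). These genes were dim, with a median level of 20.6 against 28.4 for the genes of other tissues. Only 2 of the 9 were above the median probe set. The groups separated downward in 3 of the 13 probe sets and upward in 0, against 6.65% and 4.57% of all. Of 17 probe sets for 7 markers of plasmacytoid dendritic cells 0 passed (1 higher and 1 lower unadjusted). Their sums, 5777 to 6605 in E47 samples and 5461 to 5994 in control samples, came mostly from Irf8, which T cells express too. In this list Ly6d was 1.52-fold higher in E47 samples (adjusted p = 0.228) and Tcf4 was at 0.791 of the control level (adjusted p = 0.549).

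Ets1 and Ets2 are close relatives, and Ets1 is needed for normal T cell development and cytokine production. The brightest of the 4 Ets1 probe sets read 3591, 6167 and 3643 in E47 samples and 3268, 5228 and 3208 in control samples. It was slightly higher in E47 within each experiment, by 1.10-, 1.18- and 1.14-fold. The gap between groups was small beside the gap between experiments. Experiment 2 stood 1.705-fold above experiments 1 and 3 in E47 samples and 1.61-fold in control samples. With the experiments matched, the 95% interval of the ratio of E47 to control was 0.989 to 1.31 (adjusted p = 0.579 in limma). The other 3 Ets1 probe sets had fitted ratios of 1.13, 1.23 and 1.26 (adjusted p = 0.678, 0.483 and 0.458), so all 4 pointed up and none passed.

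Ets2, which growth factor and Ras signals activate, read 472, 782 and 555 in E47 samples and 356, 441 and 480 in control samples in its brightest probe set. It was higher in E47 in each experiment, most in experiment 2, and the groups overlapped because the lowest E47 value was below the highest control value. The fitted ratio was 1.40 (95% interval 1.11 to 1.75, adjusted p = 0.407). A second probe set read 129, 182 and 136 in E47 samples and 111, 122 and 108 in control samples, with no overlap and a ratio of 1.30 (adjusted p = 0.391). The third, at 8.73 to 11.4 in E47 samples and 8.35 to 11.6 in control samples, was dim and had a ratio of 0.995.

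Fli1, a factor of blood stem cells, platelets and lymphocytes, read 491, 659 and 558 in E47 samples and 424, 469.7 and 383 in control samples. Every E47 value was above every control value, and the ratio was 1.33 (95% interval 1.12 to 1.58, adjusted p = 0.325). Its second probe set did not show this. It read 130, 211 and 144 in E47 samples and 136, 137 and 163 in control samples, higher in E47 in experiment 2 alone (ratio 1.09, adjusted p = 0.849), and without that experiment its log2 fold change was -0.12.

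The Elf genes and Gabpa form the group that is expressed across many tissues. Elf1, which binds control regions of T cell genes, read 1175, 1461 and 1400 in E47 samples and 1120.3, 1338 and 1247 in control samples. The ratio was 1.09, with a 95% interval of 0.946 to 1.25 (adjusted p = 0.693), and its dimmer probe set pointed the other way at 0.922. Elf4, which restrains the proliferation of CD8 T cells, read 37.0, 34.9 and 30.9 in E47 samples and 35.8, 41.1 and 38.1 in control samples. Its 2 probe sets had ratios of 0.892 and 0.964 (adjusted p = 0.672 and 0.918). Gabpa, the DNA-binding part of a factor that serves genes of mitochondria and of basic cell functions, read 1008, 1214 and 1017 in E47 samples and 1087, 1118 and 1012 in control samples. Its ratio was 1.00 with a 95% interval of 0.863 to 1.17, and its other probe set gave 0.949 with an interval of 0.812 to 1.11 (adjusted p = 0.99 and 0.832). For each of Elf1, Elf4 and Gabpa the 95% intervals of both probe sets held 1.

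Elk3 and Etv6 are the repressors of the set. Elk3 belongs to the ternary complex factors, which bind DNA together with the serum response factor and hold its targets down until MAP kinase signals arrive. The brightest of its 4 probe sets read 1383, 811 and 1346 in E47 samples and 1877, 1356 and 1797 in control samples. Within each experiment E47 was lower, at 0.737, 0.599 and 0.749 of the control level. The groups overlapped, because the control value of experiment 2 was below one E47 value of another experiment. The fitted ratio was 0.691 (95% interval 0.582 to 0.821, log2 fold change -0.53, SE 0.10, adjusted p = 0.196).

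The next probe set of Elk3 read 294, 181 and 276 in E47 samples and 392, 297 and 381 in control samples, without overlap, and had a ratio of 0.692 (adjusted p = 0.185). The third read 119, 82.6 and 121 in E47 samples and 126, 127 and 147 in control samples, again without overlap (ratio 0.797, adjusted p = 0.527). The dimmest ran from 17.4 to 19.6 in E47 samples and from 20.7 to 21.0 in control samples (ratio 0.866, adjusted p = 0.562). All 4 were thus lower in E47 in all 3 experiments and none passed over all probe sets. With 1 probe set per gene Elk3 had an adjusted p of 0.0757, and with a variance trend on intensity its 2 brightest probe sets passed (adjusted p = 0.0137 and 0.0318). Without matching of the experiments these stood at 0.834 and 0.808.

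Etv6, a repressor needed for blood stem cells and a frequent partner in leukaemia fusions, read 204, 216 and 244 in E47 samples and 278, 243 and 233 in control samples. It was lower in E47 in experiments 1 and 2 and higher in experiment 3, and its other probe set did the same. The ratios were 0.879 and 0.907 (95% intervals 0.718 to 1.08 and 0.750 to 1.10, adjusted p = 0.679 and 0.739).

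**Figure D3:**
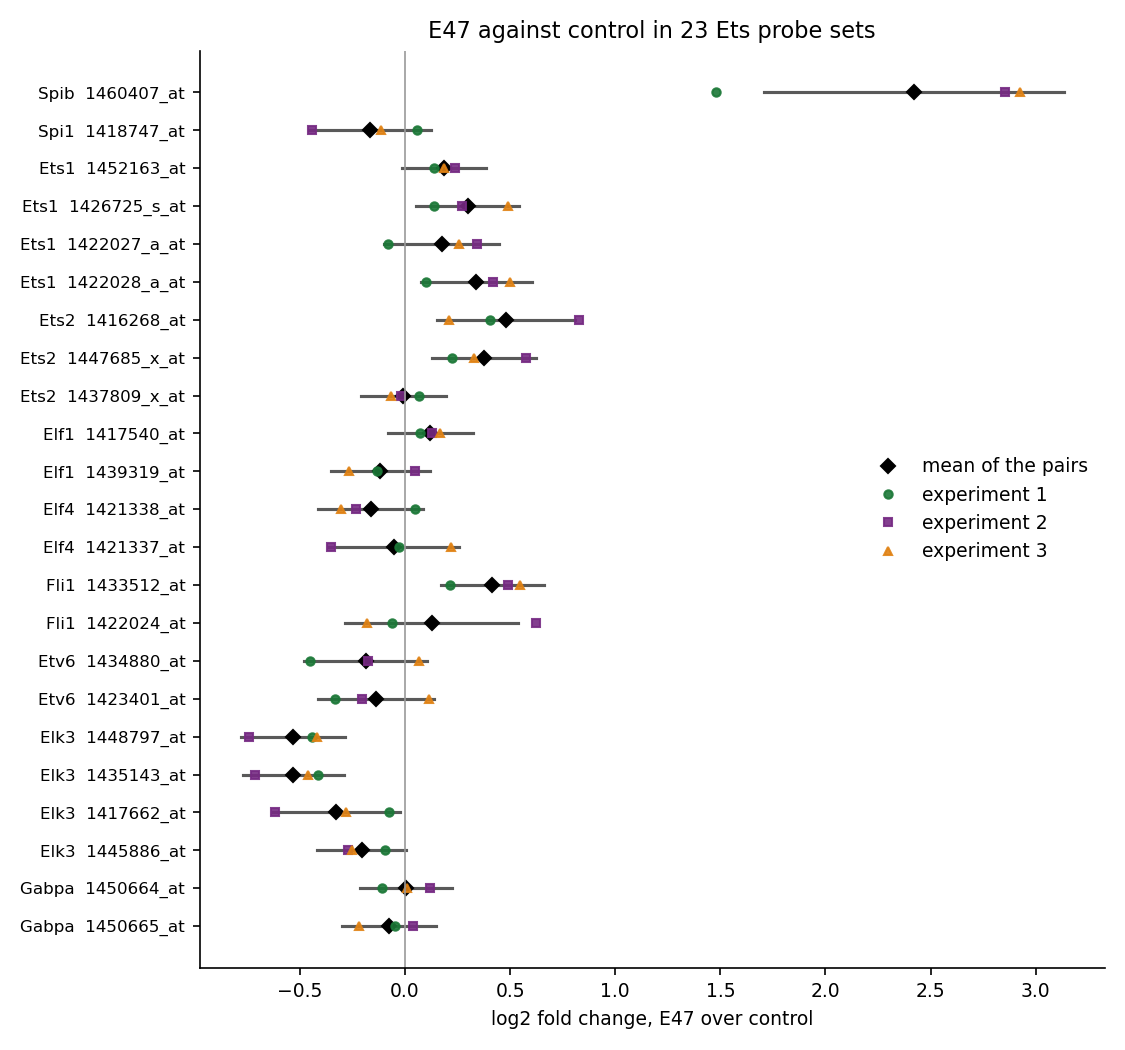
Log2 fold change (E47 over control) of all 23 probe sets. Black diamonds are the mean of 3 experiments with the 95% interval as a grey bar, and coloured symbols are the single experiments. Spib stands at 2.42, the other 22 lie between -0.53 and 0.48, and all 4 Elk3 probe sets lie below 0 in every experiment.

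Across the family, 0 of 23 probe sets passed in limma with the experiments matched, against 0.271% of all probe sets (0.238% higher and 0.0333% lower). Without matching 1 of 23 passed, Spib, against 0.115% of all. With 1 probe set per gene 1 of 10 genes passed, again Spib, against 1.14% of all genes (0.781% higher and 0.363% lower). At an unadjusted p under 0.05, 6 probe sets were higher (of Spib, Ets1, Ets2 and Fli1) and 3 were lower (all of Elk3), where 4.33% and 4.74% of all probe sets were. The 3 E47 arrays lay above the 3 control arrays in 3 of 23 probe sets and below them in 3, against 4.57% and 6.65% of all. E47 exceeded its own control in all 3 experiments in 8 of 23 and fell short of it in 4, against 13.5% and 17.5% of all. Probe sets of a gene measure the same RNA, so these counts hold 10 genes and not 23 independent values. The median log2 fold change of the 23 was -0.01, and that of all probe sets was -0.02. Without Spib the other 22 probe sets ranged from -0.53 to 0.48.

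The signal of some members also varied between experiments, though 0 of 23 probe sets passed the test between experiments given below. The brightest Ets1 probe set was 1.705-fold higher in the E47 sample of experiment 2 than in those of experiments 1 and 3, and 1.61-fold higher in the control sample. The next Ets1 probe set gave 1.63-fold in E47 and 1.68-fold in control samples. For the brightest Elk3 probe set experiment 2 stood at 0.595 of the other experiments in E47 samples and at 0.738 in control samples. In these probe sets experiment 2 had more Ets1 signal and less Elk3 signal with either construct. The 2 dimmer Elk3 probe sets did not have their lowest control value in experiment 2, where they read 127 and 20.97, against 126 and 20.95 in experiment 1.

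In the F test between experiments 0 of 23 probe sets passed, against 0.604% of all probe sets, and the lowest adjusted p was 0.0643, for the brightest Ets1 probe set. At an unadjusted p under 0.05 there were 7 of 23 (4 of Ets1, 2 of Elk3 and 1 of Ets2), against 12.7% of all. The brightest Ets1 probe set passed with 1 probe set per gene (adjusted p = 0.0186) and without experiment 1 (0.0232). It did not pass without experiment 2 (adjusted p = 0.999) or without experiment 3 (0.164). Both arrays of experiment 2 lay above the other 4 in 5 of 23 probe sets, 3 of them of Ets1, and below the other 4 in 0, against 9.93% and 11.9% of all. For Spib the same test gave an adjusted p of 0.949, but it compares averages over both constructs, and Spib was lowest in experiment 1 among E47 samples and highest there among control samples. Its highest value was 1.63-fold above its lowest in E47 samples and 1.84-fold in control samples. The age of the mice differed between experiments too, so age and experiment cannot be told apart.

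**Figure D4:**
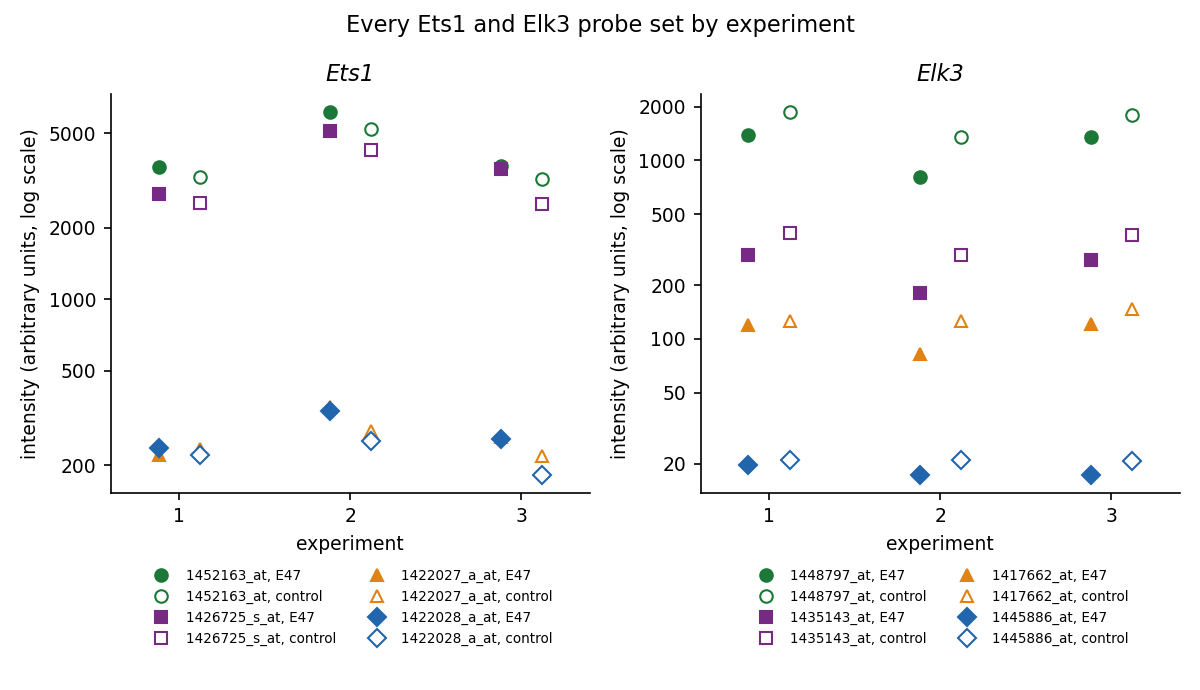
Intensity (log axis, arbitrary units) of the 4 Ets1 and the 4 Elk3 probe sets in experiments 1 to 3, with E47 samples as filled and control samples as open symbols. The brightest Ets1 probe set reaches 6167 (E47) and 5228 (control) in experiment 2, and the brightest Elk3 probe set has its lowest values there, 811 (E47) and 1356 (control).

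The rest of the Ets family was set beside these genes. Of its 16 further genes 14 were measured, with 34 probe sets, and 0 passed (1 was higher and 1 lower at an unadjusted p under 0.05). Their log2 fold changes ran from -0.29 to 0.44 with a median of -0.02. Etv3, a repressor known from maturing macrophages, read 312, 411 and 388 in E47 samples and 279.8, 285 and 252 in control samples, without overlap (ratio 1.35, adjusted p = 0.385). Etv5, a factor that spermatogonial stem cells need, had a ratio of 0.830 (adjusted p = 0.468).

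Partner factors of Ets proteins and the coactivator Pou2af1 made up a list of 11 genes with 25 probe sets. Of these 0 passed (1 higher and 2 lower unadjusted). Pou2af1, a B cell coactivator that works with octamer factors, had 54.5, 72.8 and 60.8 in E47 samples and 85.3, 124 and 85.8 in control samples (ratio 0.643, adjusted p = 0.101, and 0.0322 with 1 probe set per gene). Irf4, which pairs with PU.1 and Spi-B on composite sites, had a ratio of 0.732 (adjusted p = 0.337). The list's median log2 fold change was 0.02.

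Genes that PU.1 and Spi-B are known to control in B and myeloid cells made up a list of 16, with 32 probe sets. Of these 0 passed, against 0.271% of all probe sets. At an unadjusted p under 0.05 in limma 3 were higher and 3 lower (9.38% each), against 4.33% and 4.74% of all. In E47 samples 11 were higher and 21 lower, with a median log2 fold change of -0.07. Ncf1, a subunit of the phagocyte oxidase, had a ratio of 1.40 (adjusted p = 0.228) and Cd40 one of 0.770 (adjusted p = 0.314). With so low a share passing over all probe sets, a count of 0 says little about these genes. Whether the higher Spib signal changed its targets was not tested.

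Among genes that Ets factors bind in T cells, 16 of 18 were measured, and 3 of 27 probe sets rose and 0 fell, against 0.238% and 0.0333% of all probe sets. The median log2 fold change of the 27 was 0.13, and with 1 probe set per gene it was -0.01. The 3 that rose were both probe sets of Klf4 and that of Thy1. The list was chosen with earlier results known, so this count is a description. Klf4 encodes a zinc finger factor that slows the cell cycle and lies downstream of Elf4 in CD8 T cells. It read 242, 342 and 283 in E47 samples and 93.5, 103 and 94.3 in control samples, a 2.95-fold rise (log2 fold change 1.56, SE 0.10, adjusted p = 0.00673). The second probe set, at 118, 145 and 142 in E47 samples and 66.0, 70.5 and 56.4 in control samples, rose 2.10-fold (adjusted p = 0.0446). The call of the first was lost without experiment 2 (adjusted p = 0.0712) and without experiment 3 (0.167), and that of the second in the same cases (0.288 and 0.315) and with 16 added to every intensity (0.0610). Elf4 itself was at 0.892 of the control level. The third probe set was that of Thy1, the surface protein used for the sort, which rose 1.77-fold with an adjusted p just under the threshold (0.0498). Its call was lost without matching (adjusted p = 0.428) and without experiment 2 (0.372) or 3 (0.435), and with the random block (0.161). Whether the Thy1 probes read the sort marker as well as the cells' own gene was not analysed here. Il9, a cytokine that PU.1 promotes in T cells, read 562, 85.5 and 616 in E47 samples and 1051, 124 and 1064 in control samples, with its lowest value in experiment 2 in both groups. Its ratio was 0.598 (adjusted p = 0.0871, and 0.0273 with 1 probe set per gene). Il7r, the IL-7 receptor chain whose gene Gabpa binds, had a ratio of 1.53 (adjusted p = 0.281).

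Genes whose differences in the 3 experiments were nearest to those of Spib were found by the root mean square distance between the 3 log2 differences. Spib had 1.48, 2.86 and 2.93. The nearest was Id2, an inhibitor of E proteins, with 2.15, 2.99 and 2.80 (distance 0.40). It was followed by Pstpip2, an adaptor of the cytoskeleton (2.31, 2.74 and 3.14, distance 0.50), and Bcl2l11, the gene of Bim, a trigger of apoptosis (1.84, 2.38 and 2.21, distance 0.54). Ccdc141 (2.25, 3.02 and 2.39) and the chemokine receptor Cxcr4 (1.72, 2.35 and 2.16) were next, both at a distance of 0.55. The distance is dominated by the size of the difference, so it picks genes with a rise of like size. Pstpip2 and Ccdc141 were dim in control samples, with means of 13.7 and 16.9, and with 16 added to every intensity their log2 fold changes were 1.84 and 1.79, against 2.73 and 2.55 without it. Their distances are uncertain for that reason. The 5 genes were picked by the same differences that the test uses, so their calls are a description and not separate evidence. All 5 passed with the experiments matched (adjusted p between 0.00502 and 0.00708), and all 5 calls were lost without experiment 3 (0.0829 to 0.176). Those of Id2, Pstpip2 and Cxcr4 were lost without experiment 2 too (0.05003, 0.0624 and 0.0588), and that of Bcl2l11 without matching (0.0603).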

How the data were processed

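Expression was measured on Affymetrix arrays in 3 E47 and 3 control samples. The authors deposited linear intensities, 1 value for each of 45101 probe sets on each array, made with RMA, a method that corrects background, normalizes and summarises probes; the submitters' processing notes name it without a version. Array medians lay between 34.3 and 35.3 and were not identical, and whether the values were scaled again after RMA is not known. The 64 control probe sets were left out, log2 was taken, and 45037 probe sets were fitted. Of these 34945 had 1 gene symbol in the platform annotation, 932 had several and 9160 were unnamed. No dim probe set was removed.

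The comparison used limma 3.58.1 in R 4.3.3 (lmFit, eBayes, two-sided) with the experiment as a block, Benjamini-Hochberg adjustment over all probe sets and a threshold of 0.05. Differences between experiments were tested by the F test of the block. The pairing comes from the series' design text, which gives 3 independent experiments with a set of both constructs each. Deviations from group means correlated at 0.09, 0.52 and 0.31 within experiments 1 to 3, and at -0.43 to 0.22 between arrays of different experiments. The E47 array of experiment 1 correlated more with the control of experiment 3 (0.22) than with its own. The arrays themselves thus tie experiment 1 together little. The mice of an experiment were pooled, so the spread is that between cultures of pools. The number of arrays limits the precision.

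Alternatives were no block, a random block (duplicateCorrelation), median centring, quantile normalization, an offset of 16, a filter at the median level, 1 probe set per gene (the one with the highest mean), an eBayes trend, and leaving out each experiment. The scripts were tested on simulated data. The text names every member, and from each further list, ordered by p, at most 4 genes that passed and at most 2 others, each by its brightest probe set. It also names Tcf3, Esr1, Thy1 and Foxp3 as checks and the 5 genes nearest to Spib. Irf8 and the second Klf4 probe set were named after their values were seen. The same alternatives were run for these other genes after the data had been seen. The members and all 10 other lists were chosen with earlier results of these data known.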

Additional observations from a re-analysis of the deposited data

How the results depend on the processing

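No named gene that passed the test changed sign in any of the settings run. Of the member probe sets that did not pass, 4 changed sign in at least 1 setting (the dimmer one of Elf4, the dimmest of Ets2, the second of Fli1 and the brighter of Gabpa). With the experiments matched 122 of all probe sets passed (107 higher, 15 lower). Without the replicate block, that is without the pairing, 52 passed (52 higher, 0 lower in limma, where 2134 were lower at an unadjusted p under 0.05 with the block). The random block gave 6 lower and the offset of 16 gave 25 lower. The filter at the median level gave 41 lower, and 1 probe set per gene gave 208 (66 lower). The variance trend gave 558 (362 higher, 196 lower). Leaving out an experiment gave between 4 and 551 in all, between 4 and 486 higher and between 0 and 65 lower.

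Of the 23 Ets probe sets 0 passed with the experiments matched. The count was 1 (1 higher) without the block, with the random block, with quantile normalization and with 1 probe set per gene, each time Spib, and 3 with the variance trend (1 higher, 2 lower). Leaving out an experiment gave between 0 and 1. Spib (log2 fold change 2.42) passed without the block (adjusted p = 0.0277), with the random block (0.0155), with quantile normalization (0.0469), with 1 probe set per gene (0.0170) and with the trend (0.00309), and its log2 fold change lay between 2.17 and 2.89 when an experiment was left out. Between experiments, 1 Ets probe set passed with the offset, with the filter and with 1 probe set per gene, 4 with the trend, and between 0 and 2 when an experiment was left out. The test between experiments needs the block, so it has no value without it.

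With only 2 experiments the fit has 1 residual degree of freedom per probe set and leans on the spread shared over all probe sets. The cause of the differences between settings was not tested. Dim probe sets limit what can be said of Spi1 and Elf4 and of Spib in control samples.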
